A study of Neurospora crassa with 4 samples.

Results

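The MAK-2 cell fusion pathway of *Neurospora crassa* was examined as 7 genes, which were *nrc-1*, *mek-2*, *mak-2*, *ste-50*, *ham-5*, *pp-1* and *so*. They were taken by locus tag from a list of the pathway's genes, and all 7 were among the 7793 genes with deposited values. The data were 3′ End Sequencing libraries, 2 from ΔCFIm and 2 from control. The ΔCFIm strain (2029) carries hygromycin-resistance replacements (hphR) of *cpsf5* (NCU09014) and *cpsf6* (NCU02152), which encode the subunits of a pre-mRNA cleavage and polyadenylation factor. The control strain (1785-1, MAT A) carries neither replacement. Both strains carry *csr-1*::cbox-*luciferase*::barR, a luciferase reporter of the *frq* clock box at the *csr-1* locus. Each genotype was represented by 1 strain, and its libraries came from biological duplicate cultures, grown from conidia spread on cellophane over solid medium (0.25% w/v glucose, with arginine at 0.17% w/v) and kept in constant light at 25°C over 72 hours. Mycelia and conidia were scraped off together, so fewer cells of a type and less RNA per cell cannot be told apart.

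Fusion joins germinating conidia and hyphae of *Neurospora* into a continuous network. Partner cells take turns in sending and receiving a signal, and the MAK-2 kinase and the SO protein appear at opposite growing tips in alternation. The pathway is built like the pheromone response cascade of budding yeast. NRC-1 is its MAP kinase kinase kinase, MEK-2 its MAP kinase kinase and MAK-2 its MAP kinase, STE-50 is an adaptor of NRC-1, HAM-5 is the scaffold on which the kinases gather, and PP-1 is the transcription factor downstream, related to Ste12 of yeast.

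The libraries held between 5572762 and 6053869 reads counted on genes, scaled by the authors to 1 common total, and values are given as these normalized counts. The deleted *cpsf5* had 2.96 and 0 normalized counts in ΔCFIm against 214 and 192 in controls, and *cpsf6* had 25.7 and 26.0 in ΔCFIm against 141 and 160 in controls. The mating-type gene *matA-1* (NCU01958) had 0 reads in both ΔCFIm libraries against 152 and 160 normalized counts in controls. The labels give a mating type for the control strain only, and the cascade also serves mating in this fungus, so an effect of mating type and an effect of the deletions cannot be told apart in any comparison here. Conidial genes were abundant in every library. Of 8 marker genes of conidia and aerial hyphae, 7 had values, none was at 0, and their summed level was between 750165 and 765399 normalized counts in ΔCFIm and between 767918 and 776882 in controls. Most of that sum was *eas*, the hydrophobin gene of the conidial coat, with 611475 and 545275 normalized counts in ΔCFIm against 562943 and 584252 in controls, so it says little of the other markers. None of the 7 passed limma, edgeR or DESeq2, as described next for the pathway. An unadjusted p under 0.05 from limma was found in 22.5% of all tested genes and in 2 of the 7, with opposite signs. These were *con-8* (log2 fold change -0.64) and *al-1* (0.42), and 5 of the 7 log2 fold changes were positive. Without ΔCFIm replicate 2, *con-8* passed limma's threshold (log2 fold change -1.0, adjusted p = 0.000875). The part of conidia in the results was not tested.

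No gene of the MAK-2 pathway passed the test for a difference between ΔCFIm and control. The 6949 genes whose mean reached 10 normalized counts were tested with limma on log2(normalized count + 1), and a gene passed when its adjusted p (Benjamini-Hochberg) was at or under 0.05. All 7 members were tested and 0 passed, against 8.0% of all tested genes (556). By direction, 0 members were higher against 4.62% of all tested genes (321), and 0 were lower against 3.38% (235). The number passing among all tested genes was 333 genes without control replicate 2 and 1132 without ΔCFIm replicate 2. No member had an unadjusted p under 0.05 from limma, against 22.5% of all tested genes, and neither edgeR's quasi-likelihood test nor DESeq2 on the recovered reads called a member. The log2 fold changes of the members lay between -0.42 (*ste-50*) and 0.29 (*so*), 4 negative and 3 positive, with a median of -0.012 beside -0.0088 for all tested genes. Taken without sign, the log2 fold changes had a median of 0.22 in the members and 0.24 in all tested genes.

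Taken 1 gene at a time, limma's 95% intervals give a range for the change in the reads counted on each gene. The paper reports that poly(A) sites of many genes are altered in ΔCFIm and that some 3′ ends are annotated too short. A shift of 3′ ends could alter a count or leave it unchanged, and was not tested for the members. Across the 7 genes, the 95% intervals of the fold change (limma, not adjusted for the number of genes) reached no lower than 0.550 and no higher than 1.59 times the control level. Among the 4484 tested genes whose mean lay between those of the lowest and the highest member, 366 passed, and the smallest change that did so was 1.51-fold. The largest point estimate in the pathway, at *ste-50*, was 0.749 times the control level. For a single gene, permuting 2 ΔCFIm and 2 control libraries exactly allows no p (two-sided) under 0.333, so that test was not run.

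**Figure D1:**
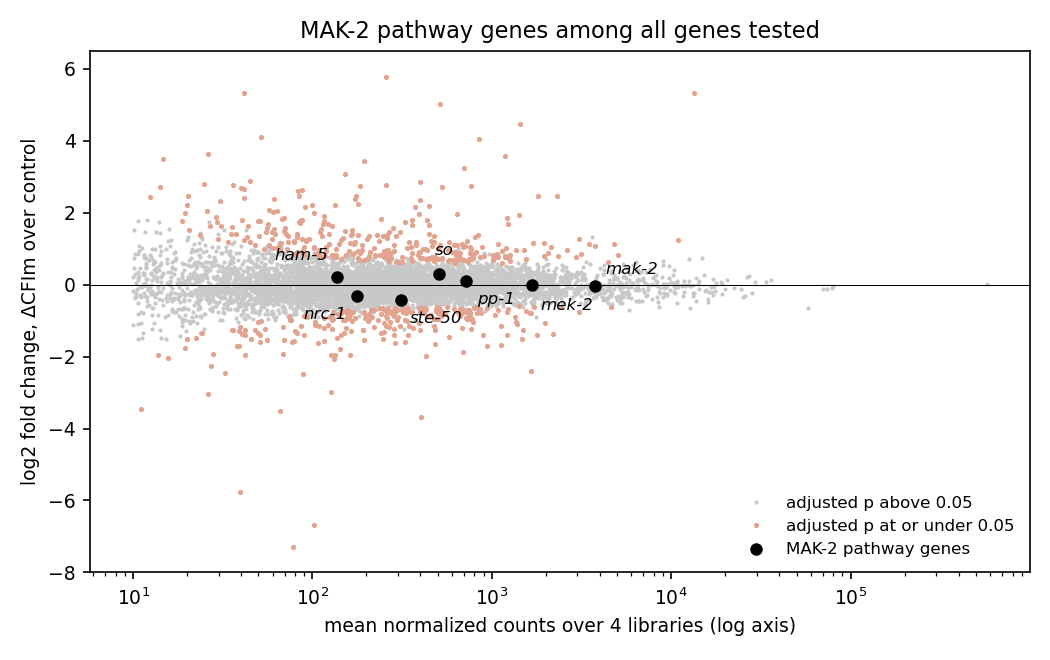
Log2 fold change (ΔCFIm over control) against mean normalized counts over 4 libraries (log axis) for all 6949 genes tested by limma, with the 7 MAK-2 pathway genes in black. The members lie inside the band of genes that did not pass the threshold, between -0.42 and 0.29, while 556 genes lie past it.

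Among the kinase transcripts, *mak-2* was the most and *nrc-1* the least abundant. The *mak-2* gene (NCU02393, linkage group VII, 2654598 to 2657461 in NC12), encoding the MAP kinase, had 4169 and 3245 normalized counts in ΔCFIm (replicate 1, then replicate 2, as for every gene), against 4175 and 3443 in controls. The genotypes overlapped almost completely, and the libraries within each genotype differed far more than the genotypes did. Its means were 3707 ± 653 in ΔCFIm and 3809 ± 518 in controls (SD, N = 2), a log2 fold change of -0.04 (95% interval -0.46 to 0.37, adjusted p = 0.922 from limma). Leaving out single libraries moved the value between -0.22 and 0.14.

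The *mek-2* gene (NCU04612, linkage group V, 1501026 to 1504190), encoding the kinase that phosphorylates MAK-2, differed least between the genotypes. It had 1745 and 1599 normalized counts in ΔCFIm against 1760 and 1613 in controls. The ΔCFIm and control libraries alternated in this order, and replicate 1 was the higher in both genotypes. Its log2 fold change was -0.012 (95% interval -0.37 to 0.35, adjusted p = 0.976 from limma), the smallest among the members.

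The *nrc-1* gene (NCU06182, linkage group III, 1804191 to 1808733), encoding the kinase at the top of the cascade, had 145 and 172 normalized counts in ΔCFIm against 211 and 182 in controls. Both ΔCFIm libraries were below both controls, by 9.99 normalized counts at the closest. The means were 159 ± 18.8 in ΔCFIm and 196 ± 20.7 in controls (SD, N = 2), a log2 fold change of -0.31 (95% interval -0.74 to 0.12, adjusted p = 0.390 from limma). This did not pass the threshold.

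The largest difference in the pathway was at the adaptor gene *ste-50* (NCU00455, linkage group III, 3919660 to 3922829, annotated there as *ty-1*). It had 306 and 229 normalized counts in ΔCFIm against 398 and 316 in controls. Both ΔCFIm libraries were below both controls, but ΔCFIm replicate 1 was only 9.84 normalized counts below control replicate 2. The means were 267 ± 54.9 in ΔCFIm and 357 ± 57.9 in controls (SD, N = 2), a log2 fold change of -0.42 (95% interval -0.86 to 0.02, adjusted p = 0.246 from limma). The gene passed the threshold in 1 of 15 alternative analyses. Without ΔCFIm replicate 1 its log2 fold change was -0.63 (adjusted p = 0.0467 from limma), while over all 15 alternatives the adjusted p ran from 0.0467 to 0.779.

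The scaffold gene *ham-5* (NCU01789, linkage group II, 2433075 to 2439647) was the least abundant member, with 160 and 134 normalized counts in ΔCFIm against 128 and 124 in controls. Both ΔCFIm libraries were above both controls, the closer by 5.69 normalized counts. The log2 fold change was 0.22 (95% interval -0.22 to 0.65, adjusted p = 0.582 from limma).

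Downstream of the kinases, *pp-1* (NCU00340, linkage group III, 3507722 to 3512003), the gene of the transcription factor, had 861 and 634 normalized counts in ΔCFIm against 695 and 687 in controls. The control libraries nearly coincided and lay between the ΔCFIm libraries. Its log2 fold change of 0.10 (95% interval -0.31 to 0.50, adjusted p = 0.811 from limma) took the sign of whichever ΔCFIm library was kept, with 0.32 without replicate 2 and -0.12 without replicate 1.

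The *so* gene (NCU02794, linkage group I, 9109342 to 9114311) encodes the protein that alternates with MAK-2 at the tips of fusing cells. It had 571 and 542 normalized counts in ΔCFIm against 427 and 481 in controls. Both ΔCFIm libraries were above both controls, the closer by 60.8 normalized counts. The means were 557 ± 20.4 in ΔCFIm and 454 ± 38.2 in controls (SD, N = 2), a log2 fold change of 0.29 (95% interval -0.08 to 0.67), the highest among the members, and the adjusted p of 0.343 from limma did not pass.

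In all, 4 of the 7 members had no overlap between the genotypes, with *so* and *ham-5* higher and *ste-50* and *nrc-1* lower in both ΔCFIm libraries. The same absence of overlap was found in 52.4% of all tested genes, with ΔCFIm above in 25.9% and below in 26.5%, so the share in the pathway was near the background. The members took between 0.112% and 0.136% of the reads on genes. Their summed level was 7957 and 6554 normalized counts in ΔCFIm against 7795 and 6846 in controls, which overlapped.

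**Figure D2:**
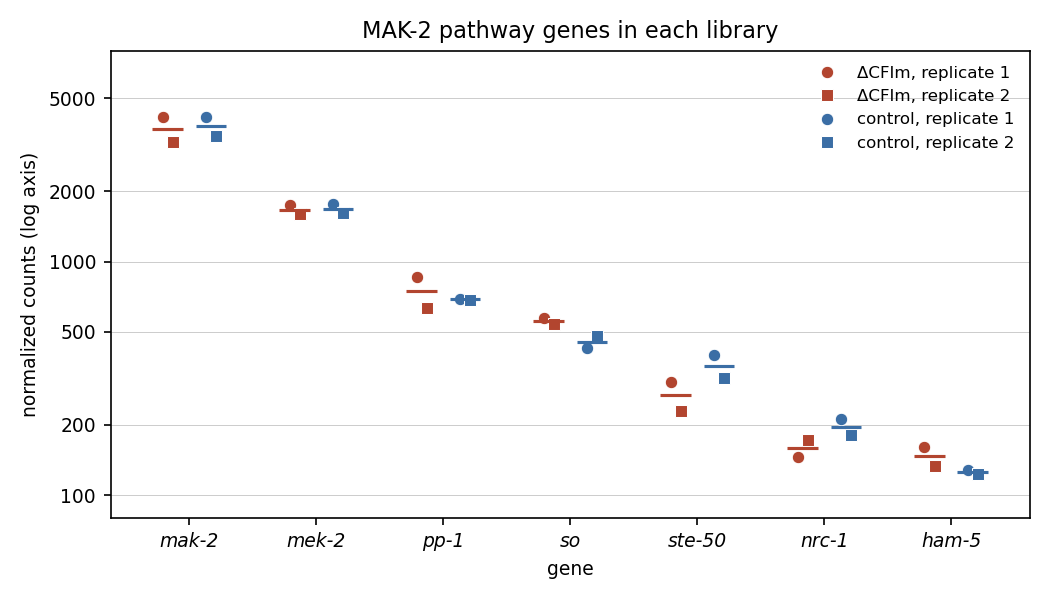
Normalized counts (log axis) of the 7 MAK-2 pathway genes in each library, ΔCFIm in red and control in blue, with circles for replicate 1, squares for replicate 2 and bars for the mean of N = 2 libraries. The genes are spread from 124 to 4175 normalized counts, and the genotypes of each gene lie close together beside that range.

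The spread between duplicate libraries was not the same for all members. Between 122 and 4219 reads lay behind each value of a member. The exact 95% Poisson intervals of these reads, which cover counting error only, overlapped between duplicates in 9 of the 14 pairs of libraries and were apart in 5. The pairs apart were both genotypes of *mak-2*, both genotypes of *ste-50*, and ΔCFIm of *pp-1*. The SD of *mak-2* was 17.6% of its mean in ΔCFIm and 13.6% in controls, where counting alone gives 1.64% and 1.63%. The SD of *mek-2*, the next in abundance, was 6.18% of its mean in ΔCFIm and 6.19% in controls. Counting alone gives 2.44% and 2.45% there. The largest SD was that of *pp-1* in ΔCFIm, at 21.4% (3.64% from counting), against 0.806% in controls (3.82% from counting). Where the intervals were apart, in both genotypes of *mak-2* and *ste-50* and in ΔCFIm of *pp-1*, the spread between duplicates was above counting error. Intervals that overlap do not place the spread within counting error. At *mek-2* they overlapped, yet the SD was above that from counting in both genotypes.

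The order of the transcript levels was *mak-2*, *mek-2*, *pp-1*, *so*, *ste-50*, *nrc-1* and *ham-5*, and it was the same by the mean of each genotype. Reads of a 3′ End library start at the transcript end whatever the length of the transcript, so levels of different genes were compared without a correction for length. Reads past a 3′ end that is annotated too short may be missing from a count, which limits such comparisons. Each gene was above the next in every pair of libraries of 1 genotype, except that *nrc-1* (145 and 172) and *ham-5* (160 and 134) overlapped in ΔCFIm. By mean over the 4 libraries, *mak-2* was the 243rd and *mek-2* the 544th most abundant of the 7793 genes, whereas *nrc-1* was the 4185th and *ham-5* the 4726th.

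The kinase transcripts stood in the same order, *mak-2* over *mek-2* over *nrc-1*, in every library of ΔCFIm and control. The ratio of *mak-2* to *mek-2* was 2.39 and 2.03 in ΔCFIm against 2.37 and 2.13 in controls, and the genotypes overlapped. The ratio of *mek-2* to *nrc-1* was 12.0 and 9.31 in ΔCFIm against 8.34 and 8.87 in controls. This ratio was higher in both ΔCFIm libraries, in which *nrc-1* was lower, and the difference was not tested. A ratio within a library does not depend on how the libraries were scaled.

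The ratio of the MAP kinase transcript to that of the top kinase was smaller in the other MAP kinase cascades in each of the 4 libraries. The MAK-1 cascade serves cell wall integrity and is also needed for fusion, and the OS-2 cascade serves the response to osmotic stress. From the top kinase to the MAP kinase, the transcript level differed by 28.7 and 18.9 times in the MAK-2 cascade of ΔCFIm and by 19.8 and 18.9 times in controls. In the MAK-1 cascade, the ratio of *mak-1* to *mik-1* was 1.04 and 0.865 in ΔCFIm against 0.808 and 0.779 in controls. In the OS-2 cascade, the ratio of *os-2* to *os-4* was 1.79 and 1.35 in ΔCFIm against 1.31 and 1.46 in controls. The MAK-2 ratio exceeded the MAK-1 ratio by 4.61 ± 0.14 and the OS-2 ratio by 3.86 ± 0.13 on the log2 scale (mean ± SD over 4 libraries, higher in 4 of 4). An exact sign-flip permutation test over the 4 libraries, which pools both genotypes, gave a two-sided p of 0.125 for each difference. This is the smallest it can give, so the threshold could not be reached and the test decides nothing.

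**Figure D3:**
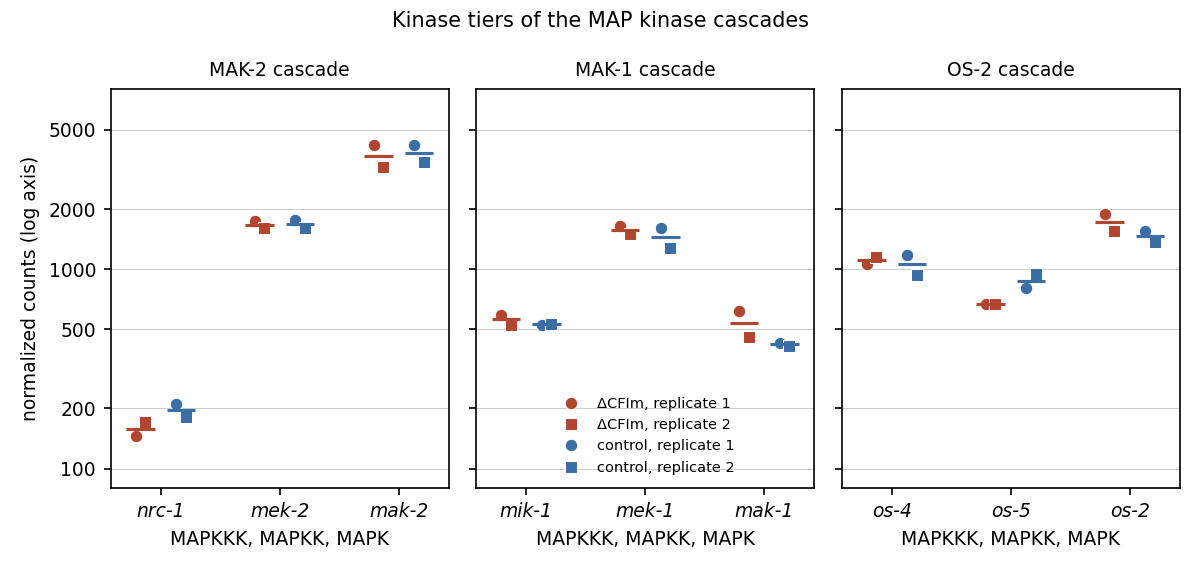
Normalized counts (log axis) of the kinase genes of the MAK-2, MAK-1 and OS-2 cascades, from the MAPKKK to the MAPK, in each library, with ΔCFIm (red) left of control (blue), circles for replicate 1, squares for replicate 2 and bars for means of N = 2. Transcript level climbs at each tier of the MAK-2 cascade in every library, from 145 for *nrc-1* to 4175 for *mak-2*, while *mak-1* and *mik-1* are at similar levels.

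The annotated loci of *mak-2* and *mek-2* each overlap a neighbour, and the strand setting used for counting is not given in the sources used here, so reads in the shared bases may be assigned to neither gene or to either. NCU02394 shares 127 bases with *mak-2* and had 277 and 242 normalized counts in ΔCFIm against 253 and 295 in controls, with overlap of the genotypes. NCU04613 shares 292 bases with *mek-2* and had 179 and 148 normalized counts in ΔCFIm against 197 and 188 in controls, with both ΔCFIm libraries lower. Neither neighbour passed the threshold (adjusted p = 0.847 for NCU02394 and 0.510 for NCU04613 from limma). The other 5 members overlap no annotated gene.

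Beside the pathway, 27 genes in 6 lists of related function were examined, and 1 of them passed limma's threshold, against 8.0% of all tested genes. Neither edgeR nor DESeq2 called a gene of the MAK-1 cascade, the OS-2 cascade, the other *ham* genes or the genes of transcription and membrane merger, in which limma called 0 as well. None of the 3 kinase genes of the MAK-1 cascade passed, and the largest log2 fold change was 0.34 at *mak-1* (adjusted p = 0.326 from limma), which was 0.55 without ΔCFIm replicate 2 and then passed (adjusted p = 0.0461). None of the 3 OS-2 cascade genes passed either, with -0.39 at *os-5*, the MAP kinase kinase, as the largest (adjusted p = 0.201 from limma). Of these 6 genes, *os-5* alone had an unadjusted p under 0.05 from limma, against 22.5% of all tested genes.

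The STRIPAK complex is a phosphatase and kinase assembly without which *Neurospora* hyphae do not fuse, and 5 of its genes were tested. Among them *ham-4* (NCU00528, linkage group I, 8112407 to 8116828) was measured at 139 and 132 normalized counts in ΔCFIm against 209 and 218 in controls. Both ΔCFIm libraries were below both controls, as in 26.5% of all tested genes. The log2 fold change was -0.65 (95% interval -1.06 to -0.24), and with an adjusted p of 0.0529 from limma the gene fell just short of the threshold. It passed with 7 of the 15 alternatives, edgeR's quasi-likelihood test among them (adjusted p = 0.0335), and not with DESeq2 (adjusted p = 0.112). Over the 15 alternatives its adjusted p ran from 0.0310 to 0.334. The other 4 STRIPAK genes had log2 fold changes between -0.13 (*mob-3*) and 0.26 (*ham-3*).

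The one gene that passed was *nox-1* (NCU02110, linkage group I, 1253810 to 1257287). It encodes an NADPH oxidase that *Neurospora* requires for fusion. Its level was 172 and 117 normalized counts in ΔCFIm against 64.1 and 82.2 in controls. Both ΔCFIm libraries were above both controls, as in 25.9% of all tested genes. The log2 fold change was 0.96 (95% interval 0.42 to 1.49, adjusted p = 0.0304 from limma). The call was lost without the filter on low values (adjusted p = 0.0710), when limma's variance prior had no trend (adjusted p = 0.0665), without control replicate 1 (log2 fold change 0.78, adjusted p = 0.159) and without ΔCFIm replicate 1 (log2 fold change 0.68, adjusted p = 0.110). Over the 15 alternatives the adjusted p ran from 0.00136 to 0.159. Its regulator *nor-1* had 110 and 118 normalized counts in ΔCFIm against 153 and 169 in controls. The log2 fold change of *nor-1* was -0.50 and did not pass (adjusted p = 0.151 from limma). None of the 5 other polarity genes passed. Their log2 fold changes lay between -0.48 (*cdc-24*) and 0.21 (*rac-1*). Of the 7 genes of this list, *cdc-24*, *nor-1* and *nox-1* had an unadjusted p under 0.05 from limma, against 22.5% of all tested genes.

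Of the 5 other *ham* genes tested, named for hyphal anastomosis, none passed. An unadjusted p under 0.05 from limma was found in 1 of them (*ham-7*) and in 22.5% of all tested genes. The largest difference was at *ham-6* (log2 fold change -0.81, adjusted p = 0.352 from limma), whose level was low, at 26.7 and 9.99 normalized counts in ΔCFIm against 43.1 and 20.3 in controls. None of the 4 genes of transcription and membrane merger passed or had an unadjusted p under 0.05. All 4 had negative log2 fold changes, as had 3549 of the 6949 tested genes, with *adv-1*, a transcription factor gene required for fusion, the largest at -0.49 (adjusted p = 0.276 from limma). The ΔCFIm libraries disagreed at *adv-1*, with 318 and 171 normalized counts against 322 and 332 in controls. Without ΔCFIm replicate 1, *adv-1* (-0.93, adjusted p = 0.00222), *ham-6* (-1.48, adjusted p = 0.0447) and *ham-7* (-0.72, adjusted p = 0.0352) passed limma's threshold. Without ΔCFIm replicate 2, *ham-8* passed it as higher in ΔCFIm (0.75, adjusted p = 0.00469).

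**Figure D4:**
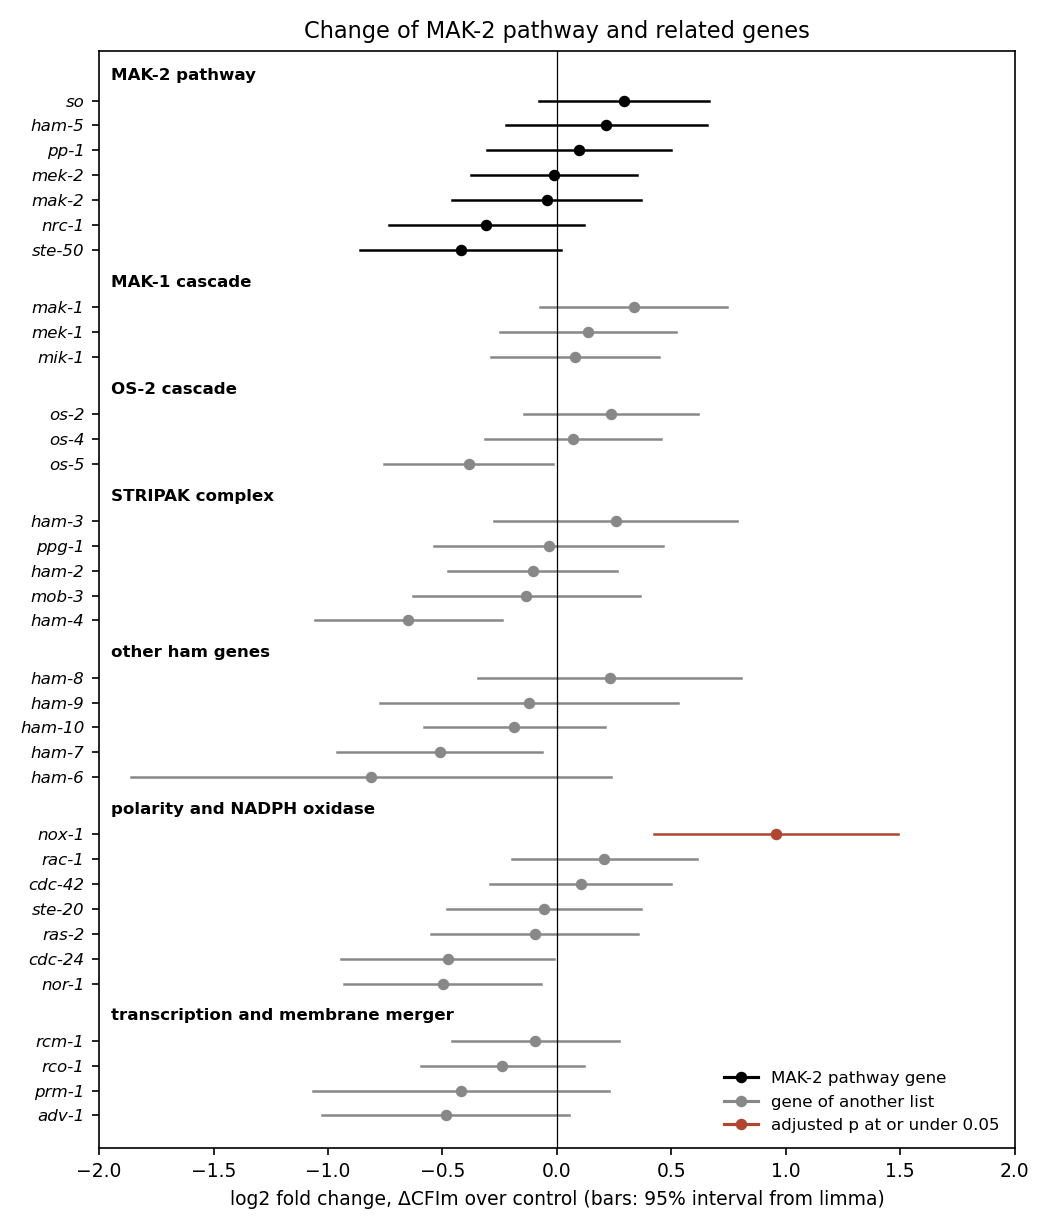
Log2 fold change (ΔCFIm over control) with its 95% interval from limma for the 7 MAK-2 pathway genes (black) and the 27 genes of 6 related lists (grey, red where the adjusted p was at or under 0.05). Every interval of a MAK-2 pathway gene includes 0, and *nox-1* (0.96) is the one gene past the threshold.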

How the data were processed

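RNA from 2 ΔCFIm and 2 control cultures was sequenced with the Lexogen QuantSeq 3′ REV kit. The authors used STAR to align the strand-specific single-end reads to NC12, the *N. crassa* reference genome, and HTSeq-count to count them per gene, and scaled the counts by library size. The deposited values are therefore a normalized signal per gene, here called normalized counts, and replicates were not pooled. All values (100%) were whole multiples, within 0.001 reads, of the value of 1 read in their library, so reads were recovered for the count tests. Of the 7793 genes, 7792 matched the RefSeq annotation of NC12, which gave symbols and coordinates. NCU09337, annotated as Prm1, was used for *prm-1*, and 2 list genes with no annotated symbol were dropped. Other list symbols also differ from the annotation, among them *mob-3* (annotated as mob1-2), *ppg-1* (pp2A), *ras-2* (smco-7) and *ste-20* (stk-4).

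Genes whose mean reached 10 normalized counts were tested with limma version 3.58.1 (lmFit, eBayes with a trend) in R version 4.3.3 on log2(normalized count + 1), which understates changes of low genes. Tests were adjusted over all tested genes. In a simulation of this comparison with 200 changed genes, 98% of 4-fold changes and 84% of 2-fold changes were found by limma among 6925 genes tested. The simulation gives no rate for changes under 2-fold, and the estimates of all members were under 2-fold. Alternatives were other pseudocounts (0.1 and 5), no filter or a minimum mean of 50, median-of-ratios, TMM and quantile scaling, a replicate block, eBayes without a trend, edgeR version 4.0.16, DESeq2 version 1.42.0, and each library left out. The members and lists were chosen with earlier results of these data known. Named genes were the members, the deleted genes and *matA-1*, and in each list the genes past the threshold and the one with the largest change. The genes *nor-1*, *mob-3*, *ham-3*, *ham-7*, *ham-8*, *al-1*, *eas*, *cdc-24*, *rac-1* and the neighbours of *mak-2* and *mek-2* fall outside this rule and were named after their values were seen.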

Additional observations from a re-analysis of the deposited data

How the results depend on the processing

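The number of MAK-2 pathway genes past the threshold was 0 in 14 of 15 alternatives and 0 to 1 with 1 library left out, the 1 being *ste-50* without ΔCFIm replicate 1. The median log2 fold change of the members stayed between -0.12 and 0.14. The direction of *nrc-1*, *ste-50*, *ham-5* and *so* held in all 15 alternatives. The genotypes do not overlap at these genes, so leaving out 1 library could not turn it. The direction of *mek-2* (-0.076 to 0.051), *mak-2* (-0.22 to 0.14) and *pp-1* (-0.12 to 0.32) turned when single libraries were left out. Over all tested genes, 556 passed, and between 333 and 1132 with 1 library left out. With the replicate number as a block, 890 passed, and the block changed no call of a member. The labels do not say that a replicate number shared by the genotypes marks a common batch, so the libraries were not treated as pairs. The deviations of same-numbered libraries correlated weakly and positively across 6949 genes, themselves no independent replicates (Pearson's r = 0.137, Spearman's rho = 0.160), and with 2 pairs this leaves the pairing undecided. The cause of these moves was not tested.

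Of the STRIPAK genes, 1 (*ham-4*) passed when the filter was raised to 50 normalized counts, under TMM, median-of-ratios or quantile scaling, the block, and edgeR, and 0 to 1 with 1 library left out. Of the polarity genes, 0 passed without the filter or without the trend, where 1 had passed, and 0 to 1 with 1 library left out. With 1 library left out, 0 to 1 passed among the MAK-1 cascade, the genes of transcription and membrane merger, and the conidial markers, and 0 to 2 among the other *ham* genes. A lone library of a genotype was assumed to vary like the other genotype. Between 10 and 41 reads lay behind each value of *ham-6*, the largest change in its list.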
